A study of Mus musculus with 2 samples.

Results

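Cycling neutrophil precursors were the barcodes with at least 2 UMIs of Mki67 and Top2a together in a single-cell RNA-Seq (scRNA-Seq) library of cells isolated as osteal macrophages (Omacs), the macrophages that line bone. A UMI (unique molecular identifier) marks 1 captured RNA molecule, and a barcode marks 1 droplet that was called a cell. Barcodes in which the stromal genes Prg4 and Dcn held 0.5% or more of the gene UMIs, or in which 4 macrophage genes, among them Pf4, Cd36 and Msr1, held 3 or more UMIs together, were left out. The rule gave 71 members of 2349 barcodes, a share of 3.02% (exact Clopper-Pearson 95% interval 2.37% to 3.80%). Of the 78 barcodes that reached 2 UMIs of Mki67 and Top2a, 1 was left out by the stromal limit and 6 by the macrophage limit. The values that chose the members are therefore Mki67, Top2a and those 6 genes, and every difference between the members and the other barcodes below is a description of that choice, without a test.

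The library held cells of female BALB/c mice that were 10 weeks old at bilateral ovariectomy (OVX) or sham surgery and had no other treatment, with cells taken 4 weeks after surgery. Each condition was 1 pool of cells from the femurs and vertebrae of 20 mice, sorted with antibodies to CD11b, F4/80 and CD68, and the pools were labelled with hashtag antibodies (hashtag 1 for OVX, hashtag 2 for sham) and run together as 1 gene expression library. In all, 1037 OVX and 1084 sham cells were loaded. Mice cannot be told apart within a pool, so the intervals given here cover counting error only, and no test between OVX and sham was possible.

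Neutrophils arise in bone marrow from myeloblasts and promyelocytes, which make the primary (azurophil) granules, followed by myelocytes, which still divide and fill the specific granules, and by metamyelocytes, band cells and mature neutrophils, which have left the cell cycle. Specific granules carry lactoferrin (Ltf), the cathelicidin Camp, neutrophilic granule protein (Ngp) and lipocalin 2 (Lcn2), and gelatinase granules with Mmp9 are filled later. Dividing cells copy DNA and make histones in S phase, and build the spindle and separate chromosomes in G2 and M phase.

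The members held 970667 gene UMIs in all, from 780 to 53885 in a barcode, with a median of 12500 UMIs and 2567 genes. The 1906 barcodes that met both other limits and had no UMI of Mki67 or Top2a, called non-cycling here, had a median of 3652 UMIs. Deep barcodes reached the threshold more often. When the 2058 barcodes that met both other limits were divided by depth into 4 equal groups, these held 5, 8, 6 and 52 members from the shallowest to the deepest, and members made up 10.1% of the deepest group. The higher depth of dividing cells and the easier passage of a deep barcode cannot be told apart.

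The label was checked against marker genes. S100a8 and S100a9, the calprotectin subunits that fill the neutrophil cytosol, stood at 20 UMIs or more together in all 71 members, and their median share was 29.8% of the gene UMIs (lowest 0.125%, highest 53.1%). Camp or Ltf had a UMI in 64 members, Ngp in 69, Lcn2 in 68, Ly6g in 45 and Cebpe, a transcription factor of granulocyte maturation, in 37. Of the label markers, Hist1h1b had a UMI in 31 members, Camp in 60 and Ltf in 61. The other label markers, Mki67 in 67 members and Top2a in 52, were used by the rule and check nothing. These shares need a background, since free RNA puts UMIs of abundant genes into every droplet. In the 189 barcodes left out by the stromal limit, at a median depth of 20523 UMIs, S100a9 had a UMI in 93.7% but stood at 1039 CPM (gene UMIs scaled to a total of 1000000), against 172169 CPM in the members. Camp had a UMI in 34.9% of those stromal barcodes and in 84.5% of the members, Ltf in 22.8% and 85.9%, and Ngp in 59.8% and 97.2%.

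Defining genes of other lineages were scarce. The labels call the cells macrophages, and CD11b (Itgam), which neutrophils carry too, stood at 815 CPM in the members. Of the 13 macrophage markers searched, 9 were at 0 UMIs in all members, among them C1qa, C1qb, C1qc, Mertk and Mrc1, while Adgre1, the gene of F4/80, had 4 UMIs and Csf1r 2 UMIs in total, and Cd68 stood at 23.7 CPM against 63.1 CPM in the non-cycling barcodes. The macrophage list summed to 28.8 CPM in the members, 26.1 CPM in the non-cycling barcodes and 262 CPM in the stromal barcodes, and 2 members reached 5 UMIs, with Vcam1 as its most abundant gene. Of the 12 B cell and 12 T or NK cell markers, 10 each were at 0, and no member had 5 UMIs of either list. The monocyte list reached 5 UMIs in 6 members, led by Fn1, with Irf8, Ms4a6c, Ms4a4c and Ly86 at 0. The dendritic list reached 5 UMIs in 20 members through Cst3, with H2-Aa, Flt3, Siglech, Xcr1 and Batf3 at 0. The stromal list reached 5 UMIs in 7 members through Prg4 and Dcn, which the rule itself limits, with Col1a2, Col3a1, Lum and Cxcl12 at 0. The erythroid list reached 5 UMIs in 2 members, led by Tfrc, the osteoclast list in 1, and the megakaryocyte, eosinophil, basophil or mast and endothelial lists in none. Over the macrophage, dendritic, B, T or NK, erythroid, eosinophil and basophil or mast lists together, 32 of 71 members (45.1%) had 5 UMIs or more, against 15.7% of the shallower non-cycling barcodes, and Cst3 gave 60.5% of those UMIs. Without Cst3 the number was 9 members (12.7%) and 4.25% of the non-cycling barcodes. The 32 members were deeper than the other 39, with medians of 16714 and 7476 UMIs. S100a8 and S100a9 together held 1% or more of the UMIs in every member but 1.

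**Figure D1:**
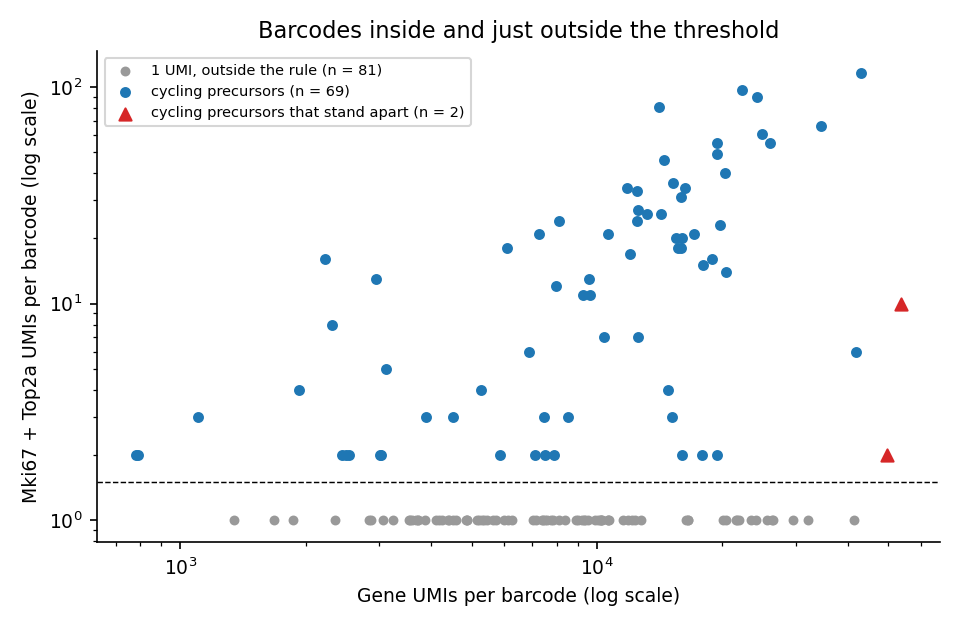
Gene UMIs (x axis, log scale) and UMIs of Mki67 plus Top2a (y axis, log scale) of the 71 members and of the 81 barcodes with 1 UMI that met both other limits, with a dashed line for the threshold. The 2 members that stand apart (triangles) are deep for their few Mki67 and Top2a UMIs.

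Both of the 2 members that stand apart carried the sham hashtag, and together they weigh on every summed sham value below. The first had 53885 UMIs, 11.2% of all UMIs of sham members, with 50 UMIs of Elane, 81 of Prtn3, 6 of Mpo, 7 of Ctsg, 62 of Ms4a3 and 11 of Cebpe. It alone held 96.6% of the members' UMIs of those 4 primary granule proteases and peroxidase (Elane, Prtn3, Mpo, Ctsg), and had 8 UMIs of Camp and none of Ltf. It is called the primary granule barcode here, and the second the stromal barcode. The second had 49712 UMIs, 10.3% of the sham members' UMIs, with 566 UMIs of Mmp3, 517 of Ccl2, 427 of Thbs4, 276 of Timp1 and 206 of Prg4, no UMI of Camp, Ltf or Ptprc (the leukocyte antigen CD45), and S100a8 and S100a9 at 0.125%. Its Prg4 and Dcn share of 0.495% lay just under the limit, and its 2 UMIs of Mki67 and Top2a lay on the threshold. Values without these 2 barcodes are given where stated.

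The threshold itself was checked with genes it did not use. Of the members, 15 had exactly 2 UMIs of Mki67 and Top2a, 21 had 2 or 3, and 41 had 10 or more, with a median of 13 and a highest value of 116. The 52 genes of the G2 and M phase list, which left out Mki67 and Top2a, held a median of 1.17% of the UMIs in the 50 members at 4 UMIs or more and 0.309% in the 21 members at 2 or 3. Just outside, the 81 barcodes with 1 UMI stood at 0.156%, close to the 0.147% of the non-cycling barcodes. The late neutrophil list ran the other way, at 3.64% in the members at 4 UMIs or more and 6.51% at 2 or 3. It stood at 8.87% in the barcodes with 1 UMI and 14.4% in the non-cycling barcodes. Malat1 was its most abundant gene, at 19522 of the 46686 CPM of the list in the members. The list also summed to 58206 CPM in the stromal barcodes, so its sum is not particular to neutrophils. The members just inside the threshold thus had weaker cycle expression and a larger share of that list than the rest of the members.

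Cell cycle genes led the differences between the members and the non-cycling barcodes. Of 1555 genes at 100 CPM or more in the members or the non-cycling barcodes, 377 were at least 2-fold higher in the members (24.2%) and 342 at least 2-fold lower (22.0%). At the lower limit of 20 CPM used for gene lists, 5328 genes were compared, 28.3% were higher and 14.1% lower, and the median of all genes was 0.22 on the log2 scale. Among the genes at 100 CPM or more, the 20 with the largest ratios were Mki67 and Top2a, 17 other genes of replication, chromatin or mitosis, and Thbs4, which 3 members had and whose 442 CPM came almost wholly from the stromal barcode. Mki67, the coat protein of mitotic chromosomes, stood at 805 CPM in the members, and Top2a, the topoisomerase that untangles sister chromatids, at 718 CPM, both with no UMI in the non-cycling barcodes by the rule.

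Of 47 G2 and M phase genes at 20 CPM or more, 46 were at least 2-fold higher in the members, with a median log2 ratio of 6.21 (list medians below are on this scale). Cdk1, the kinase that drives entry into mitosis, stood at 128 CPM in the members and 0.522 CPM in the non-cycling barcodes. The cyclins that pair with it, Ccnb1, Ccnb2 and Ccna2, stood at 70.1, 84.5 and 67.0 CPM against 0.209, 2.50 and 0.104 CPM. Birc5 and Cdca8, of the chromosomal passenger complex, stood at 181 and 165 CPM against 0.626 CPM each. Ube2c, which feeds ubiquitin to the anaphase-promoting complex, stood at 307 against 2.61 CPM, and Cenpe, a kinetochore motor, at 246 against 0.835 CPM. Hmgb2, a chromatin protein that non-cycling barcodes also carried, was the most abundant gene of the list at 3738 against 887 CPM.

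Of 33 S phase genes, 32 were at least 2-fold higher, with a median of 4.35. Pclaf, a partner of the replication clamp, stood at 311 CPM in the members against 1.15 CPM. Pcna, the clamp itself, stood at 196 against 53.0 CPM. The ribonucleotide reductase subunits Rrm1 and Rrm2, which make deoxynucleotides, stood at 111 and 105 CPM against 3.24 and 0.522 CPM. Of 20 replication-dependent histone genes, 18 were at least 2-fold higher and none lower, with a median of 4.83. Hist1h1b, a linker histone, had a UMI in 43.7% of the members and 0.262% of the non-cycling barcodes, at 399 against 0.522 CPM. Hist1h3c, a core histone, stood at 275 CPM with no UMI in the non-cycling barcodes, and Hist1h1e at 567 against 31.1 CPM. Replication histone messages mostly lack poly(A) tails and core histone genes have near-identical copies, so their counts in a poly(A)-primed library are uncertain between copies. Among 16 cell cycle inhibitors, 4 were higher and 3 lower. The INK4 inhibitors Cdkn2c and Cdkn2d were among the higher, at 24.7 and 179 CPM against 0.417 and 79.4 CPM, and the antiproliferative genes Btg1 and Btg2 and the Myc antagonist Mxd1 were the 3 lower.

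UMIs of the G2 and M phase list outnumbered those of the S phase list in 66 of 71 members, and the reverse held in 5. The same order held in 1663 of 1906 non-cycling barcodes, in which Hmgb2 led the list, so the count assigns no phase to a cell. Across the 71 members, which share library and depth differences, the share of the G2 and M phase list and that of the replication histones had a Spearman rho of 0.52, and the S phase and G2 and M phase lists 0.26.

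The promoters of the most typical mitotic genes are shown because these genes were high together in the members. Late cell cycle promoters are known to carry a cell cycle homology region (CHR, TTTGAA or TTCGAA) and CCAAT boxes. Within 250 bases before the start in RefSeq (GRCm38.p6), searched on both strands, a CHR was in 23 of 52 promoters of the G2 and M phase list with Mki67 and Top2a (44.2%), against 17.1% of all 32851 promoters, CCAAT in 75% against 33.9%, and both in 38.5% against 6.02%. These 52 promoters belong to the 47 of 54 genes that could be matched. The 160 bases before the gene start (GENCODE) of Top2a (chr11:99024190-99024349, minus strand) and of Cdk1 (chr10:69352939-69353098, minus strand) are given 5′ to 3′, with CHR and CCAAT matches on either strand in capitals. The 2 motifs share no bases in these windows, and a match is only a match of letters.
Top2a: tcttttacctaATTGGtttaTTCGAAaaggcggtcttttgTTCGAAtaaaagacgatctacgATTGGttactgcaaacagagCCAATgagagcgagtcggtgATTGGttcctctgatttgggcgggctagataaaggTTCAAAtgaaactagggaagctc
Cdk1: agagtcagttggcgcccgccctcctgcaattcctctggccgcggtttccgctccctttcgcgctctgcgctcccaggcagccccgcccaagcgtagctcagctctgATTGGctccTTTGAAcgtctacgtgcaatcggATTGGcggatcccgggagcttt

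A match to an E2F site (TTTCCCGC or TTTGGCGC) was in 8 of 34 S phase promoters (23.5%), against 1.30% of all promoters. E2F factors are known to drive genes of DNA replication.

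The defining proteases and peroxidase of primary granules were nearly absent outside 1 barcode. Of 7 primary granule genes at 20 CPM or more, 4 were at least 2-fold higher (Elane, Prtn3, Ms4a3 and Serpinb1a) and 2 lower (Srgn and Ctsc), with a median of 1.15, while the list summed to 2398 CPM in the members against 5467 CPM. Elane stood at 51.5 CPM and Prtn3 at 88.6 CPM, and at 0 and 5.77 CPM without the 2 barcodes. Elane, Mpo, Prtn3 or Ctsg had a UMI in 4 of 71 members, of which 1 is the primary granule barcode with nearly all of them. Ms4a3, a membrane protein of promyelocytes and early myelocytes, had a UMI in 20 members, at 133 against 3.03 CPM in the non-cycling barcodes, with 62 of its 129 UMIs in the primary granule barcode. Fcnb, ficolin B of early granulocytes, had a UMI in 19 members, at 47.4 against 1.98 CPM. The serine protease inhibitor Serpinb1a stood at 684 against 308 CPM, and Srgn, the core protein of granule proteoglycan, at 1113 against 4824 CPM. Of 20 early progenitor genes, 7 reached 20 CPM, of which 4 were at least 2-fold higher (Myb, Myc, Sox4 and Igfbp4) and 1 lower (Procr), with a median of 1.69. The list summed to 228 CPM in the members against 179 CPM. Cd34, the antigen of stem and progenitor cells, had 1 UMI, the receptor Kit had 2, and Flt3, Gata2, Meis1 and Hoxa9 had none. Sox4, a factor of progenitors and stroma, stood at 26.8 CPM in the members and 4.61 CPM when the 2 barcodes that stand apart were left out. Myb, a factor of dividing progenitors, was in 21 members, at 39.1 against 3.55 CPM.

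Of 24 specific granule genes at 20 CPM or more, 5 were at least 2-fold higher in the members and 7 lower. Over all genes at that limit, 28.3% were higher and 14.1% lower. The median of the list was -0.18 against 0.22 for all genes, so the list as a whole was not high in the members. Camp stood at 3996 against 881 CPM (ratio 4.54, exact 95% counting interval 4.37 to 4.71), Ngp at 12874 against 5804 CPM, Ltf at 2102 against 899 CPM, Chil3, a chitinase-like lectin, at 384 against 69.8 CPM, and Abca13 at 67.0 against 30.9 CPM. Lcn2 stood at 3923 against 2728 CPM, a ratio of 1.44. Mmp8, the neutrophil collagenase, stood lower, at 173 against 1125 CPM, as did Ly6g, at 199.9 against 1111 CPM, and Lyz2, lysozyme, at 216 against 754 CPM. Camp and Ltf together made up a median of 0.524% of the UMIs of a member, from 0% to 2.47%. They were at 0.5% or more in 37 members, 12 members lay within 0.1 percentage points of that line, and 19 were under 0.1%. Camp and Ltf therefore bear on the name in the 37 members at 0.5% or more, and not in those 19, in which these markers were low or absent. These genes alone do not set precursors apart, since 123 non-cycling barcodes also reached 0.5%.

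Camp, Ltf and Ngp lie on chromosome 9 of GRCm38 (chr9:109847379-109849617, chr9:111019271-111042767 and chr9:110419747-110423012), while Mki67 lies at chr7:135689784-135716361, Top2a at chr11:98992943-99024189 and Hist1h1b at chr13:21779883-21780625. The promoters of Ltf and Ngp are shown because C/EBP factors such as C/EBPε are known regulators of specific granule genes. The 160 bases before the start of Ltf (chr9:111019111-111019270, plus strand) and of Ngp (chr9:110419587-110419746, plus strand) each hold 1 match, in capitals, to TTGCNNAA on either strand. The promoter of Camp held 0 matches in the 250 bases searched and is not shown.
Ltf: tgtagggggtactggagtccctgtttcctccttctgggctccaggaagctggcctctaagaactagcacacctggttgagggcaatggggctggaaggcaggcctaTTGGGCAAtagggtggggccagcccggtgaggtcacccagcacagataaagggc
Ngp: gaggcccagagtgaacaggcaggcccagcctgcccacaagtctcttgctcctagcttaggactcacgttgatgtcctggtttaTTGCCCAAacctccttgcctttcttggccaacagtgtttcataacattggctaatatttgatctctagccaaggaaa

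A C/EBP match was in 7 of 25 specific granule promoters (28%), 0 of 12 primary granule promoters and 9.56% of all promoters.

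Genes of later stages were low relative to all non-cycling barcodes. Of 15 gelatinase granule and secretory vesicle genes, 11 were at least 2-fold lower and none higher, with a median of -1.67. Mmp9, gelatinase B, stood at 344 CPM in the members against 1819.5 CPM, and Fpr1, the formyl peptide receptor, at 47.4 against 228 CPM. Of 26 late neutrophil genes, 23 were lower and none higher, with a median of -1.92. Ccl6, a CC chemokine, stood at 2343 against 15545 CPM, and its share ranged from 0% to 3.47% of a member's UMIs with a median of 0.0789%. Retnlg, a resistin-like peptide, stood at 2360.2 against 12340.0 CPM. Of 21 receptors of egress and homing, 11 were lower and none higher. Cxcr2, the receptor that draws neutrophils out of the marrow, stood at 413 against 1570.1 CPM, and the G-CSF receptor Csf3r at 144 against 823 CPM. Cxcr4, which retains cells in the marrow, stood at 110.2 against 136 CPM. Of 34 transcription factors of granulopoiesis, 6 were higher and 10 lower. Cebpe stood at 112 against 25.3 CPM and Myc at 37.1 against 11.5 CPM, whereas Zeb2 stood at 57.7 against 182 CPM and Klf6 at 195 against 536 CPM.

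**Figure D2:**
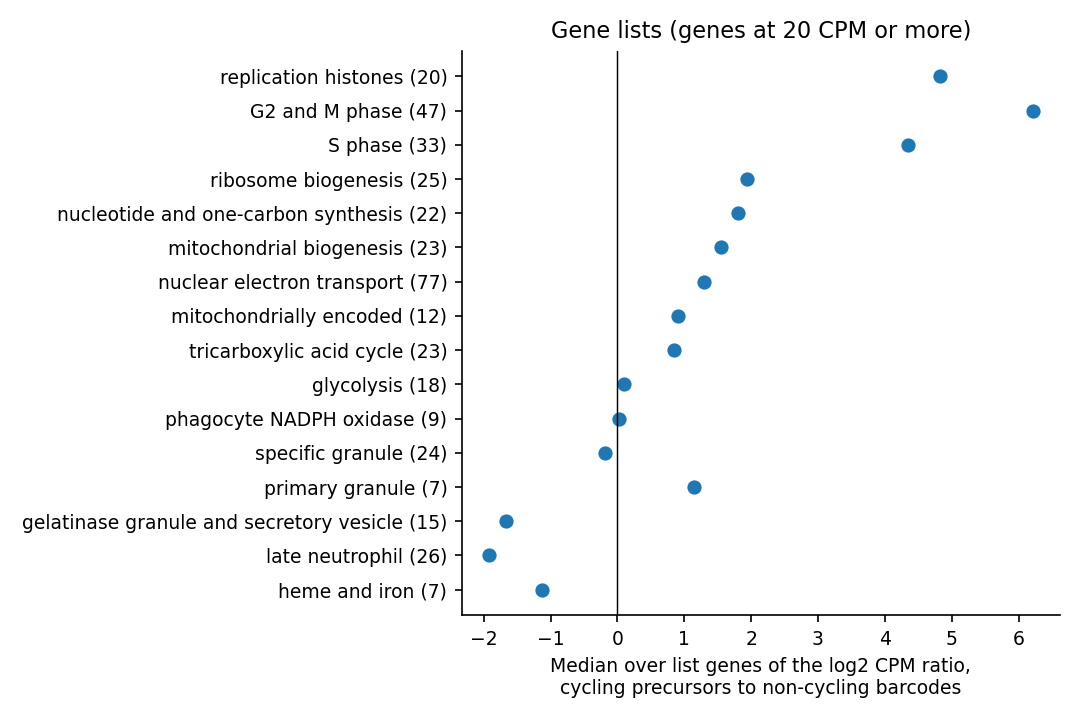
Median, over the genes at 20 CPM or more (their number in parentheses) of 16 lists of cell cycle, granule, late neutrophil and metabolic genes, of the log2 ratio of CPM in the 71 members to that in the 1906 non-cycling barcodes (x axis). Cell cycle lists lie farthest right, the G2 and M phase list at 6.21, and of the lists plotted the late neutrophil list lies farthest left at -1.92.

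Relative to all non-cycling barcodes, metabolic genes were high for making ribosomes, nucleotides and mitochondria, and not for glycolysis. All 25 ribosome biogenesis genes at 20 CPM or more were at least 2-fold higher, with a median of 1.94. The list summed to 5028.5 CPM in the members and 3505 CPM without the 2 barcodes that stand apart, against 1366 CPM. Npm1 and Ncl, the abundant nucleolar proteins, stood at 810 and 787 CPM against 159 and 217 CPM. Of 22 genes of nucleotide and one-carbon synthesis, 19 were higher. That list summed to 1793 CPM in the members and 1451 CPM without the 2 barcodes, against 548 CPM. Tyms, thymidylate synthase, stood at 40.2 against 0.417 CPM, and Dut, which removes dUTP, at 81.4 against 2.82 CPM. Of 77 nuclear genes of the electron transport chain, 53 were higher and none lower, with a median of 1.30, such as Ndufab1 of complex I at 124 against 19.8 CPM and Cyc1 of complex III at 87.6 against 16.3 CPM. Of 12 mitochondrially encoded genes, 5 were higher, such as mt-Nd1 at 906 against 369 CPM, and mt-Co1 stood at 4472 against 2705 CPM. The log2 ratio of the mitochondrially encoded sum, 0.83, was -0.05 when every barcode had equal weight, and the largest share of these genes in a non-cycling barcode was 98.5%. Of 23 genes of mitochondrial biogenesis, 17 were higher. That list summed to 1966 CPM in the members and 1292 CPM in the members without the 2 barcodes that stand apart, against 832 CPM. Of 23 genes of the tricarboxylic acid cycle, 9 were higher, led by Idh3a at 45.3 against 3.55 CPM, while 28.3% of all genes were higher.

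Glycolysis had no gene at least 2-fold higher and 4 of 18 lower. Gapdh stood at 1136 against 772 CPM, Aldoa at 746 against 704 CPM and Pkm at 455 against 586 CPM. The 9 subunits and partners of the phagocyte NADPH oxidase, which makes superoxide, had 1 higher and 1 lower. Ncf1 stood at 722 against 712 CPM. Of 7 heme and iron genes, 1 was higher and 4 lower. The ferritin chains Fth1 and Ftl1 stood at 12810.0 and 4802 CPM against 45063 and 10457 CPM, and Tfrc, the transferrin receptor, at 45.3 against 8.98 CPM.

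The non-cycling barcodes above mostly lacked Camp and Ltf. A narrower comparison used the 37 members and the 123 non-cycling barcodes with Camp and Ltf at 0.5% of UMIs or more. Of 1327 genes at 100 CPM or more in either, 14.3% were at least 2-fold higher in the members and 7.54% lower. Of the cycle lists, over fewer genes than above, 24 of 25 G2 and M phase genes (median 4.30), 7 of 7 S phase genes (2.15) and 9 of 9 replication histones (6.13) were higher. The 2 groups were both chosen on Camp and Ltf, so these genes are given as values, 7528 against 7562 CPM for Camp and 3547 against 7336 CPM for Ltf. Among the other specific granule genes, 7 of 17 were at least 2-fold lower in the members and none higher, with a median of -0.83. Ngp stood at 18516 against 26536 CPM, Lyz2 at 99.4 against 711 CPM and Ly6g at 203 against 584 CPM. Ifitm1, an interferon-induced membrane protein, had the largest ratio among the lower genes, at 19.5 against 446 CPM. Of 18 late neutrophil genes 5 were lower, and of 11 gelatinase granule and secretory vesicle genes 3, with none higher in either list. Of 11 mitochondrially encoded genes 2 were higher, with sums of 20405 against 17705 CPM. Of 2 mitochondrial biogenesis and 2 tricarboxylic acid cycle genes none was higher. Of 8 ribosome biogenesis genes 6 were higher, and of 43 nuclear electron transport genes 4 were higher and none lower. The median of the ribosome biogenesis list was 2.03 here and that of the nuclear electron transport list 0.26, over fewer genes than above because the limit was 100 CPM. Relative to a median of -0.10 over all 1327 genes, the first list stood apart more than the second.

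The members varied in their share of Camp and Ltf. A range of that share is not a stage or type of cell. The members were divided by it into tertiles of 24, 23 and 24 barcodes. Camp and Ltf stood at 0% to 0.262%, 0.270% to 0.734% and 0.778% to 2.47% of UMIs in them. Both barcodes that stand apart fell in the lowest tertile, and its CPM values are given without them, over 22 barcodes. Its median shares and counts of members cover all 24. Ngp followed Camp and Ltf, at 6744 CPM in the lowest, 17274 in the middle and 18751 in the highest tertile (Spearman rho 0.66 over the 71 barcodes). The specific granule list without Camp and Ltf summed to 17057, 27406 and 30885 CPM. The late neutrophil list, with Malat1 as its most abundant gene in the members, ran downward, at 60579, 46745 and 39924 CPM. Ccl6 stood at 4842, 1951 and 1108 CPM. Cxcr2 stood at 654, 415 and 319 CPM, and Retnlg at 3489.9, 2762 and 1625 CPM. For Retnlg the fall in the sums was not shared by single barcodes, whose median shares were 0.0540%, 0.102% and 0.135% over all members of the tertiles (rho -0.01), whereas Ccl6 had medians of 0.176%, 0.0937% and 0.0411% (rho -0.32). The late neutrophil list had medians of 6.46%, 3.65% and 3.05%, so its share, Malat1 included, was largest in the lowest tertile. The primary granule list was also highest there, at 3028, 1998.5 and 1922 CPM. Srgn, serglycin, gave much of that sum, at 1832, 1045 and 742 CPM, while Elane, Mpo and Ctsg were at 0 in all tertiles and Prtn3 stood at 10.9, 6.33 and 0 CPM. The lowest tertile also held 9 of the 21 members at 2 or 3 UMIs of Mki67 and Top2a, against 6 in each of the other tertiles.

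Cycle genes varied less evenly over the tertiles. The G2 and M phase list summed to 8579, 12210.0 and 9705 CPM and the replication histones to 2054, 4453 and 3214 CPM, so both sums were highest in the middle tertile. Median shares over all members of the tertiles were 0.523%, 1.19% and 0.971% for the G2 and M phase list, and 0.0744%, 0.166% and 0.207% for the histones, which by this measure were highest in the highest tertile. S phase genes summed to 1578, 1894 and 2867 CPM, with medians of 0.117%, 0.177% and 0.175%, so the middle and highest tertiles differed in the sum only. Rrm2 stood at 43.6, 91.8 and 203 CPM. The mitochondrially encoded genes summed to 12614, 20140 and 20221 CPM. Heme and iron genes, mostly ferritin, summed to 25327, 16074 and 15138 CPM.

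**Figure D3:**
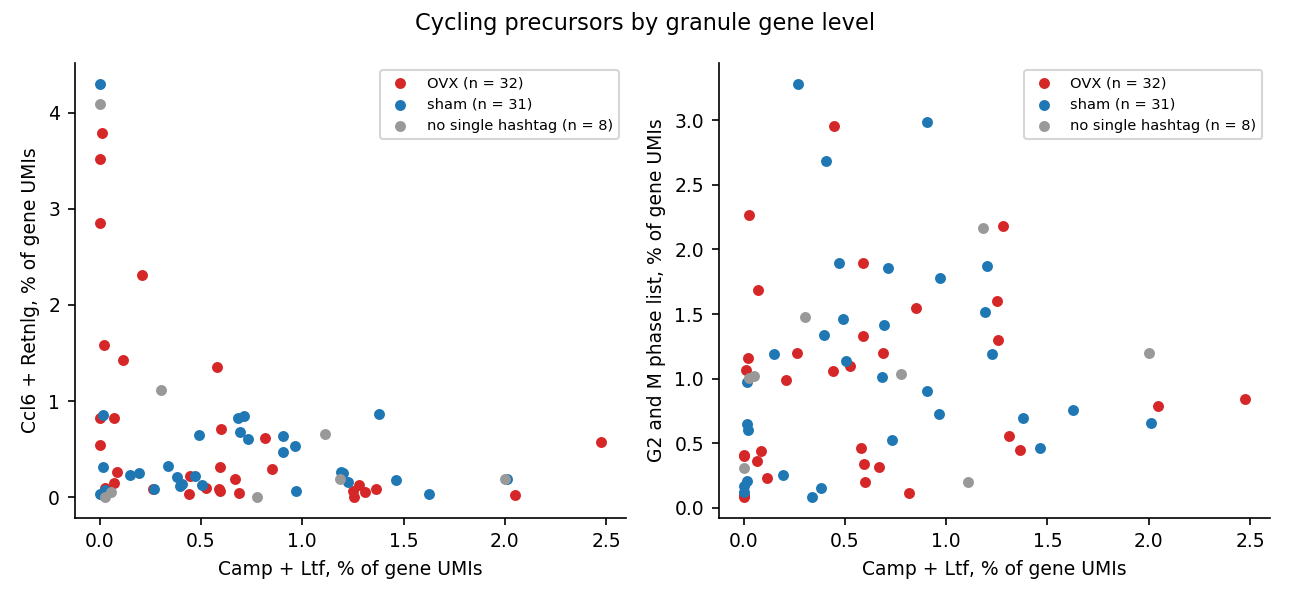
Each of the 71 members by its share of Camp plus Ltf (x axes, percent of gene UMIs) against Ccl6 plus Retnlg (left panel) and the G2 and M phase list (right panel), both in percent of gene UMIs, with 32 OVX, 31 sham and 8 members without a single hashtag in different colours. High Ccl6 and Retnlg occur at the lowest Camp and Ltf, while the G2 and M phase list is spread over the whole range.

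**Figure D4:**
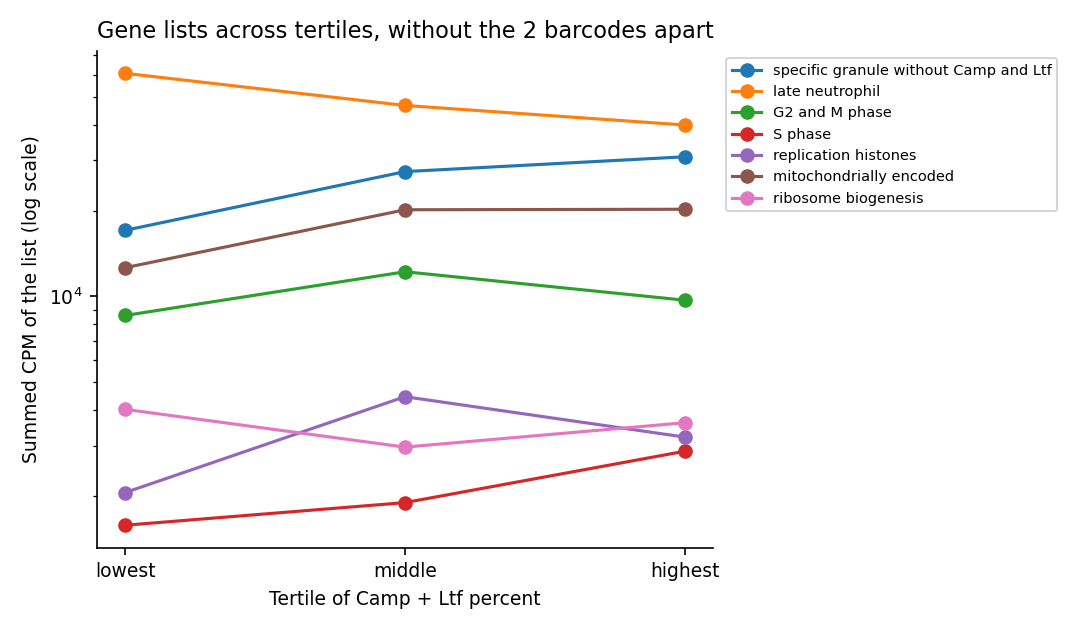
Summed CPM of 7 gene lists (y axis, log scale) in the lowest, middle and highest tertile of the members by Camp plus Ltf (x axis), without the 2 barcodes that stand apart. The late neutrophil list, with Malat1 as its most abundant gene in the members, goes from 60579 to 39924 CPM. S phase genes go from 1578 to 2867 CPM.

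The share of cycling neutrophil precursors was 3.02% in OVX and 3.16% in sham. Hashtags assigned 1059 barcodes to OVX and 981 to sham, and the members among them were 32 of 1059 (3.02%, Clopper-Pearson 95% interval 2.08% to 4.24%) and 31 of 981 (3.16%, 2.16% to 4.46%). Without the 2 barcodes that stand apart, sham had 29 members (2.96%, 1.99% to 4.22%). At 4 UMIs or more of Mki67 and Top2a, both conditions had 22 members (2.08% and 2.24%), and with Camp and Ltf at 0.5% or more OVX had 17 (1.61%) and sham 16 (1.63%). These intervals cover counting error only and overlap almost wholly, and with 1 pool per condition the shares could not be tested. OVX barcodes were deeper than sham barcodes, with medians of 4812 and 3704 gene UMIs. Deep barcodes reached the threshold more often, so a fixed number of UMIs did not meet like depths in the 2 conditions. Other settings turned the order. At a threshold of 1 UMI the shares were 85 of 1059 (8.03%, 6.46% to 9.83%) in OVX and 53 of 981 (5.40%, 4.07% to 7.01%) in sham, with intervals that overlap at their ends, and the barcodes with exactly 1 UMI were close to the non-cycling ones in their G2 and M phase RNA. Without members with 5 or more UMIs of other lineages the shares were 1.79% (1.08% to 2.79%) and 1.33% (0.707% to 2.26%), and after thinning to 1000 UMIs they were 3.07% (2.09% to 4.32%) and 2.57% (1.63% to 3.83%). The other 8 members were above both hashtag cutoffs (2) or neither (6) and belong to no condition. Those 6 had medians of 49.5 UMIs of the OVX and 1046 of the sham hashtag. When a hashtag needed 80% of 10 or more hashtag UMIs, the shares were 25 of 956 (2.62%) in OVX and 36 of 1166 (3.09%) in sham. Hashtag background was uneven, as OVX members had a median of 1700 UMIs of the OVX hashtag and 317 of the sham hashtag, and sham members 2844 of their own and 70 of the other. No barcode was called or removed as a doublet of the same hashtag. OVX members stood in the lowest, middle and highest tertile of Camp and Ltf with 13, 10 and 9 barcodes, and sham members with 8, 12 and 11.

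The OVX members held 389151 UMIs (median 11218) and the sham members 482893 (median 14507). Of 1449 genes at 100 CPM or more in either, 64 were at least 2-fold higher in OVX (4.42%) and 121 lower (8.35%), with a median of all genes of -0.09. The 2 sham barcodes that stand apart decided much of the lower side. They gave over 50% of the sham UMIs for 65 of the 121 genes, and without them 58 of 1336 genes were higher (4.34%) and 26 lower (1.95%), with 42 of the 64 and 19 of the 121 among them. The 10 genes with the lowest ratios, namely Thbs4, Il1rl1, Prtn3, Ccl2, Hbegf, Tnc, Timp1, Pdpn, Il11 and Tm4sf1, took most of their sham UMIs from 1 of these barcodes in every case, Prtn3 from the primary granule barcode and the other 9 from the stromal barcode. Thbs4, a matrix thrombospondin, stood at 2.57 CPM in OVX against 886 CPM in sham, and at 2.64 CPM in sham without them.

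Replication histones were higher in OVX members. The list reached a sum of 4350.5 CPM in OVX members against 1617 CPM in sham members (1967 without the 2 barcodes), a ratio of 2.69 (2.21 without them). Its log2 ratio of 1.43 was 0.57 at a threshold of 1 UMI and 0.74 after thinning each barcode to 1000 UMIs. Only 9 of the 49 genes of the list reached 100 CPM in OVX or sham members. Of those, 7 were at least 2-fold higher in OVX (5 of 9 without the 2 barcodes). Hist1h1d and Hist2h2ac, given below, passed that limit through OVX members alone. The limit thus helps set the count, which adds no separate evidence to the sum. In single barcodes the list ranged from 0% to 2.05% of UMIs with a median of 0.195% in OVX, and from 0% to 0.667% with a median of 0.0875% in sham. The ranges overlap, and the highest OVX value lies above all sham values. In non-cycling barcodes the list stood at 208 against 187 CPM. Hist1h1b had a UMI in 17 of 32 OVX and 12 of 31 sham members, from 0% to 0.292% (median 0.0118%) and from 0% to 0.0924% (median 0%) of UMIs, at 761 against 112 CPM (142 without the 2 barcodes), a ratio of 6.80 (exact 95% counting interval 5.08 to 9.27). Hist1h1e stood at 840 against 315 CPM, Hist1h1d at 213 against 68.3 CPM and Hist2h2ac at 188 against 68.3 CPM.

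The other cycle lists had ratios nearer 1. The G2 and M phase list had an OVX to sham ratio of 1.24 (1.09 without the 2 barcodes) and the S phase list of 0.88 (0.82). Of 29 G2 and M phase genes, 2 were at least 2-fold higher in OVX members (none without the 2 barcodes). Over all genes, 4.42% were higher and 8.35% lower. The 2 were the kinetochore genes Cenpe at 349 against 159 CPM and Cenpf at 206 against 82.8 CPM. The log2 ratio of the G2 and M phase list ran from -0.34 to 0.33 over the processing alternatives, so no direction is given for it. That of the S phase list ran from -0.79 to -0.08, lower in OVX throughout. Median shares of the G2 and M phase list were 0.916% in OVX and 0.970% in sham, with ranges of 0.0817% to 2.96% and 0.0856% to 3.28% that overlap. Mki67 stood at 1036 against 598 CPM (733 without the 2 barcodes) and Top2a at 915 against 549 CPM (696), but both chose the members. The cell cycle inhibitors had a ratio of 1.45 (1.35 without the 2 barcodes). Of 9 such genes, 2 were at least 2-fold higher in OVX members (3 without the 2 barcodes) and 1 lower. Btg1 stood at 745 against 311 CPM, while Cdkn1a ran the other way, at 188 against 404 CPM. The difference between the histone list and the other cycle lists was not tested.

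Some chemokine and myeloid genes were among the highest OVX to sham ratios, by which most of those named here were chosen. They are not a fixed list, and the chemokine Ccl2 ran the other way, at 17.99 against 1081 CPM (10.5 without the 2 barcodes), through the stromal barcode. In non-cycling barcodes Ccl2 was also lower in OVX, at 27.5 against 725 CPM. Ccl6 stood at 3769.7 against 1219.7 CPM (1500.1 without the 2 barcodes), but its median share was 0.0853% in 32 OVX and 0.0887% in 31 sham members, and 32.1% of its OVX UMIs came from 1 barcode. The ranges of 0% to 3.47% and 0% to 2.08% overlap. Wfdc17, a small secreted protein of activated phagocytes, stood at 159 CPM in 8 OVX members against 1 UMI in 1 sham member (ratio 76.9, counting interval 13.3 to 3087). Its log2 ratio of 6.27 was 2.15 without members with 5 or more UMIs of other lineages. In non-cycling barcodes it stood at 853 against 30.9 CPM. Ccl3 stood at 185 CPM in 10 OVX members against 22.8 CPM in 7 sham members, and Ccl9 at 111 against 10.4 CPM with 51.2% of the OVX UMIs from 1 barcode. At a threshold of 1 UMI the log2 ratio of Ccl3 went from 3.02 to 0.01 and that of Ccl9 from 3.42 to 1.06. Ccl4 stood at 113 against 14.5 CPM with 77.3% of the OVX UMIs from 1 barcode, and its log2 ratio of 2.96 turned to -2.23 at a threshold of 5 UMIs and was 0.14 after thinning each barcode to 1000 UMIs. Marcks stood at 141 against 22.8 CPM, Basp1 at 236 against 49.7 CPM and Clec4n, the receptor dectin-2, at 123 against 24.9 CPM. Without members with 5 or more UMIs of other lineages the log2 ratio of Basp1 went from 2.25 to 0.83, that of Marcks from 2.63 to 1.81 and that of Clec4n from 2.31 to 1.32. Most of these genes were more abundant in non-cycling than in cycling barcodes, with Marcks at 415 CPM, Basp1 at 906 CPM and Clec4n at 454 CPM in all non-cycling barcodes. Between non-cycling OVX and sham barcodes, Ccl9 had a ratio of 2.20, Marcks 1.52, Ccl3 1.48, Clec4n 1.37, Basp1 1.02 and Ccl4 0.79. The late neutrophil list as a whole had a ratio of 1.37 (1.26 without the 2 barcodes), with 1.17 in the non-cycling barcodes. Of its 20 genes at 100 CPM or more, 6 were at least 2-fold higher in OVX members and none lower. Without the 2 barcodes the count was also 6 of 20. The shares of all genes were 4.42% with and 4.34% without them. Whether free RNA, doublets or the share of barcodes near the threshold set these values was not tested. Among lists of other lineages, the macrophage list summed to 46.3 CPM in OVX and 16.6 CPM in sham members, the monocyte list to 139 and 197 CPM, the dendritic list to 236 and 292 CPM, and the stromal list to 188 and 741 CPM (132 in sham without the 2 barcodes).

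Genes that stood at least 2-fold lower in OVX members with and without the 2 barcodes included the following, which were named after their values were seen and are not a fixed list. Manf, an endoplasmic reticulum stress protein, stood at 82.2 CPM in 18 OVX members against 311 CPM in 23 sham members (277 without the 2 barcodes). The disulfide isomerases Pdia6 and Pdia3 stood at 43.7 and 69.4 CPM against 157 and 201 CPM (134 and 190 without them). Ssr3, of the translocon, stood at 51.4 against 164 CPM (156) and Selenos at 36.0 against 153 CPM (124). Calr, a chaperone of the endoplasmic reticulum, was not among them, at 200.4 against 257 CPM (261), a ratio of 0.78 (exact 95% counting interval 0.58 to 1.04). Thbs1, thrombospondin 1, stood at 234 CPM in 23 OVX members against 781 CPM in 28 sham members (973), and at 612 against 2317 CPM in non-cycling barcodes. Olfm4, a granule glycoprotein carried by a subset of neutrophils, stood at 157 CPM in 11 OVX members against 389 CPM in 14 sham members (493). Its log2 ratio of -1.31 was -0.03 at a threshold of 1 UMI.

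Of 18 specific granule genes, none was at least 2-fold higher in OVX members and 2 were lower. Over all genes, 4.42% were higher and 8.35% lower. The 2 were Olfm4, given above, and Chil3. Chil3 stood at 224 against 497 CPM (482 without the 2 barcodes), a ratio of 0.45 (exact 95% counting interval 0.35 to 0.58). Camp stood at 3610.4 CPM in OVX against 3957 CPM in sham (5017 without the 2 barcodes), Ltf at 2600.5 against 1694 CPM (2157), a ratio of 1.54, and Ngp at 13982 against 11299 CPM (14366). Median shares of Camp and Ltf were 0.552% (0% to 2.47%) in 32 OVX members and 0.506% (0% to 2.01%) in 31 sham members, and Ngp had medians of 1.10% in each. The specific granule list had a ratio of 1.16, which turned to 0.93 without the 2 barcodes, against 0.72 in the non-cycling barcodes.

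Among metabolic lists the mitochondrially encoded genes stood higher in OVX members, at 23793 against 14053 CPM (12099 without the 2 barcodes), a ratio of 1.69 (1.97). The ratio of the sums in non-cycling barcodes was 1.24, but their median shares were 0.460% in OVX and 0.240% in sham, so the list stood higher in OVX there too. In single members the list ranged from 0.0401% to 7.95% with a median of 1.42% in OVX, and from 0.0993% to 4.43% with a median of 0.921% in sham, so the groups overlap. Of its 12 genes, 1 was at least 2-fold higher (6 without the 2 barcodes), namely mt-Co1 at 6190.4 against 3092 CPM (2900.1). Mitochondrial RNA also marks cells in poor condition, and its part in these values was not tested. Ribosome biogenesis genes had a ratio of 0.54 with all members and 1.03 without the 2 barcodes, mitochondrial biogenesis genes 0.47 and 0.94, and nucleotide synthesis genes 0.63 and 0.92. For these 3 lists the lower sum in OVX rested on the 2 sham barcodes.

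**Figure D5:**
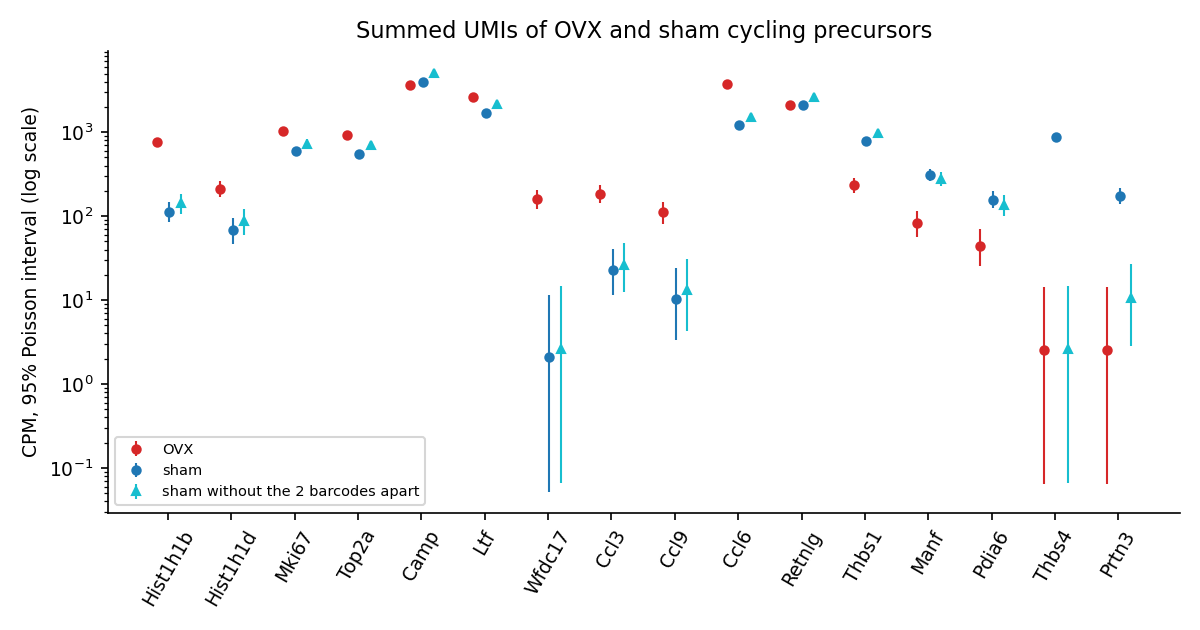
CPM (y axis, log scale) of 16 genes in the summed UMIs of 32 OVX members, 31 sham members and the 29 sham members without the 2 barcodes that stand apart, with exact 95% Poisson intervals of the counts as bars. Hist1h1b stands at 761 CPM in OVX members against 112 CPM in sham members, and the sham value of Thbs4 goes from 886 to 2.64 CPM without the 2 barcodes.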

How the data were processed

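The authors deposited whole-number UMI counts of 32285 genes and 2 hashtags in 2349 barcodes that Cell Ranger had called as cells (version 6.0.0 in the matrix header, 6.0.1 in the submitters' processing notes), aligned to mm10, without normalization. The kit primes poly(A) RNA at the 3′ end, so ratios were made within a gene, and an order of genes or lists by UMIs is one of captured molecules, not corrected for capture. The library held 17681092 gene UMIs, with a median of 4387 per barcode. Hashtag counts were taken from the matrix itself, and the second deposited library, of hashtags alone, was not analysed.

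Each barcode was given a hashtag with Seurat 5.3.0 (HTODemux, cutoff at the 0.99 quantile) in R 4.3.3. Barcodes above both cutoffs or neither were left out of comparisons of OVX and sham, and no doublet caller was run. UMIs were summed over the barcodes of a group and scaled to CPM. A gene was called higher or lower at a 2-fold ratio among genes at 100 CPM or more in either group (20 CPM for gene lists against all non-cycling barcodes). Ratios against a group at 0 used a floor of 3 UMIs, and no ratio was made where both groups were at or under it. Intervals were exact at 95% (scipy 1.17.1). When each barcode was thinned to 1000 UMIs, leaving out shallower ones, Camp had a UMI in 66.7% and Ltf in 66.7% of the members. Alternatives were other thresholds on Mki67 and Top2a, thinning, a filter on genes and mitochondrial share, a hashtag rule of 80%, equal weight for every barcode, other CPM limits, and leaving out members of other lineages or the 2 that stand apart. The computation of ratios was tested on simulated data.

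The members and gene lists were chosen with earlier results of these data known. Genes were named by rule: those that chose or label the members, the 20 leading genes, the 10 highest and 10 lowest ratios of OVX to sham, and the highest and extreme genes of each list. Some genes that these rules name are not reported here. Other list genes, and the ratios without the 2 barcodes that stand apart, were chosen after their values were seen. Promoters came from RefSeq and coordinates from GENCODE M21.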

Additional observations from a re-analysis of the deposited data

How the results depend on the processing

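With 1 pool per condition no replicate could be left out. No paired analysis was possible because no group has more than 1 sample. A stage score from Elane, Mpo, Prtn3 and Ctsg could not give a value, since 4 of 71 members had a UMI. The share of OVX barcodes was 8.03% at a threshold of 1 UMI, 1.89% at 5 UMIs and 1.79% without members with 5 UMIs of other lineages, and that of sham 5.40% at 1 UMI and 1.33% without those members. The genes at least 2-fold higher in OVX numbered 64, and 151 without members with other lineages, 108 with every barcode weighted equally, 117 with that and without the 2 barcodes apart, 160 at 50 CPM and 22 at 200 CPM. The lower genes numbered 121, and 53 at a threshold of 3 UMIs, 59 at 5 UMIs, 28 after thinning, 191 without members with other lineages, 26 without the 2 barcodes, 295 at 50 CPM, 43 at 200 CPM and 58 as a mean over tertiles of Camp and Ltf. Against non-cycling barcodes the higher genes numbered 377, and 187 at 1 UMI, 743 at 50 CPM, 192 at 200 CPM and 190 at like Camp and Ltf, and the lower genes 342, and 109, 225 after thinning, 193 at 200 CPM, 69 against immature barcodes and 100 at like Camp and Ltf. The cause was not tested, save that a CPM limit or threshold changes how many genes or barcodes enter.

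Among OVX to sham log2 ratios of 1 or more in size, those reversed were Ccl2 (0.79 and 0.84 at 3 and 5 UMIs, 1.07 thinned, 0.77 without the 2 barcodes, 0.31 without its top barcode), Timp1 (1.30, 1.36, 1.98, 0.96 and 1.05 likewise, and 1.63 with equal weights and without the 2 barcodes), Tm4sf1 (2.30, 2.36, 1.66 and 1.96), Ccl4 (-2.23 at 5 UMIs) and the mitochondrial biogenesis list (0.18 thinned). Smaller list ratios also crossed 0, such as ribosome biogenesis (-1.34 to 0.29), nucleotide synthesis (-1.12 to 0.05), primary granule (-0.30 to 0.66), specific granule (-0.20 to 0.21) and the G2 and M phase list. Against immature barcodes and at like Camp and Ltf, which chose those groups, Camp was at -0.92 and -0.0063 and Ltf at -1.80 and -1.05, and Thbs4 was at -3.81 thinned. The replication histone list stood between 0.57 and 1.79 on the log2 scale over all settings (1.43 as reported), the mitochondrially encoded list between 0.28 and 1.06 (0.76), and Hist1h1b between 1.88 and 3.64, all higher in OVX. Depth limits genes near 20 CPM and every share near the threshold.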

Other observations

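The 7 barcodes with 2 or more UMIs of Mki67 and Top2a that the stromal and macrophage limits left out had a median of 30780.0 gene UMIs and up to 72 UMIs of Mki67 and Top2a. The 8 members without a single hashtag held 2 barcodes above both cutoffs, with 1927 and 34586 UMIs, and 6 under both, with a median of 8622 UMIs.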
